A study of Mus musculus with 9 samples.

Results

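The mitosis and spindle genes described here are 40 genes, of 37882 in the deposited expression table, that drive or carry out cell division. They were chosen by gene symbol, and no measured value entered the rule. The choice was made with earlier results of these data known, so no test of the set was run. All 40 symbols were found, and all 40 passed the filter on low values (3 or more libraries at an RPKM of 1 or above). RPKM counts reads relative to transcript length and library size, so levels can be compared between genes of different length. The genes were measured by RNA sequencing in LSK cells, which were sorted from bone marrow as negative for the lineage markers Mac1, Gr1, B220, CD3e and Ter119 and positive for Sca1 and cKit. This fraction contains blood stem cells and early progenitors. There were 3 groups of 3 mice, each library from 1 independent mouse aged 6 to 8 weeks. The rtTA control mice carried rtTA, the doxycycline-dependent transcriptional activator, in Rosa26 on a mixed B6/129 background. The K9M mice carried in addition an H3K9M transgene in Col1a1, and the K36M mice an H3K36M transgene in Col1a1. These are histone H3 genes in which the lysine named was replaced by methionine. All 9 mice, controls included, carried rtTA and drank water with doxycycline at 2 mg/ml and sucrose at 10 mg/ml. No group carried an unmutated histone transgene, so the mutation and the extra histone cannot be told apart.

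Mitosis divides the copied chromosomes between daughter cells. Cyclin-dependent kinase 1 with its cyclins starts it, kinetochores tie the chromosomes to spindle microtubules, and a checkpoint holds back the anaphase promoting complex until every chromosome is attached. That complex then marks securin and the cyclins for destruction, and cytokinesis splits the cell. Transcripts of these genes build up late in the cell cycle, so in a mixed population their level is commonly read as a sign of dividing cells. Most blood stem cells rest, while the progenitors that share the LSK surface markers divide more often. Histone H3 with lysine replaced by methionine is known to inhibit the methyltransferases that act on that lysine.

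The libraries held an estimated 15860000 to 50310000 reads, read from the size of the smallest steps in RPKM, a ratio of 3.17 between the deepest and the shallowest. At least 432 estimated reads stood behind every value of a member. H3f3a, which encodes histone H3.3, was at 223.8 ± 32.3 RPKM in rtTA, 299.5 ± 17.5 in K9M and 459.7 ± 44.2 in K36M (SD, n = 3 mice each). Reads from a transgene cannot be told apart from the mouse's own gene here. The stem and progenitor markers Kit and Ly6a, which encodes Sca1, were detected in every library, at 53.3 to 102.5 and 118.8 to 292.0 RPKM.

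Promoters of mitotic genes are known for a late cell cycle control element, the CHR, and for nearby CCAAT boxes, which the factor NF-Y binds. RefSeq promoters (GRCm38.p6, 250 bases before to 50 after the start site) were held for 32 of the 40 members. The letters of the CHR, TTTGAA on either strand, were in 24 of these 32 windows (75%), against 14.3% of the windows of all tested genes and 20.2% of all 27025 genes with a window. CCAAT on either strand was in 25 of 32 (78.1%), against 43.3% of tested genes. Both were in 21 (65.6%), against 6.03% of tested genes. An E2F-like core, TTCGCG on either strand, was in 4 of 32 (12.5%), against 9.56% of tested genes. A CHR match and a CCAAT match read on the other strand can share a base, as they do in Cdca8. A match describes letters only, not a bound site.

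The CHR match nearest to the start site lay within 50 bases of it in 22 of the 24 genes. In the other genes, Kif2c and Mki67, the first base of the match lay at positions -103 and -98 from the start site. The windows of Kif2c, Cdca8 and Kif4 lie inside the gene as annotated by GENCODE, so their positions are from the RefSeq start only. The following 30-base windows, aligned on that match, are from members given in full below that hold one, so that the surrounding letters can be read. Capitals mark the match, and each window is written in the gene's own direction.
Cdk1 (chr10:69352910-69352939, minus strand): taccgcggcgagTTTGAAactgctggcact
Ccnb2 (chr9:70421533-70421562, minus strand): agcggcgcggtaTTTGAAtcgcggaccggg
Plk1 (chr7:122159453-122159482, plus strand): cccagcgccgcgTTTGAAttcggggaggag
Aurka (chr2:172370521-172370550, minus strand): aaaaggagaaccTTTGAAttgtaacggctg
Ttk (chr9:83834684-83834713, plus strand): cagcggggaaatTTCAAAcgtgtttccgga
Cdc20 (chr4:118437344-118437373, minus strand): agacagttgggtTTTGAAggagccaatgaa
Spc25 (chr2:69206172-69206201, minus strand): ggcggtggagagTTTGAAattgaaagactg
Kif11 (chr19:37376351-37376380, plus strand): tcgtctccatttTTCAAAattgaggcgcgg
Prc1 (chr7:80294434-80294463, plus strand): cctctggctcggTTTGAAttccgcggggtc
Anln (chr9:22389168-22389197, minus strand): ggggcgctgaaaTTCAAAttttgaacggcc
Top2a (chr11:99024195-99024224, minus strand): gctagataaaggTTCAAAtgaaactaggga

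In 17 of the 24 genes the nearest match read TTTGAA in the direction of the gene and in 7 it read TTCAAA. Where a CCAAT match was also present, the median distance between the centres of the nearest pair was 33.5 bases (21 genes, 4.5 to 153.5). The 150-base stretches below lie upstream of the RefSeq start. Cdk1 shows a promoter with all 3 motifs and Ccnb1 one with CCAAT matches but no TTTGAA in its window. Pttg1 shows a window with no match to any of them. That window lies inside the Pttg1 gene as annotated by GENCODE (chr11:43420250-43426251, minus strand), downstream of the GENCODE start. It therefore does not show the letters upstream of that start. Capitals mark every match.
Cdk1 (chr10:69352913-69353062, minus strand): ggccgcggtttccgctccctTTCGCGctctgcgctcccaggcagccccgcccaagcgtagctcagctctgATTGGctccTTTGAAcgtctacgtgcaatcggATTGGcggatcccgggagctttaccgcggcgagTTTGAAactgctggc
Ccnb1 (chr13:100786487-100786636, minus strand): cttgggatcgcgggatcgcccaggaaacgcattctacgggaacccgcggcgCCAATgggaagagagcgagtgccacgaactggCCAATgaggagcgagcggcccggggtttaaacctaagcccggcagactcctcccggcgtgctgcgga
Pttg1 (chr11:43425982-43426131, minus strand): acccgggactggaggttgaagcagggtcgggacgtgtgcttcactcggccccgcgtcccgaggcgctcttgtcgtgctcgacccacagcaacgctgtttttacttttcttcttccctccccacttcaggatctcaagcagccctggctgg

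Pttg1, Mad2l1 and Birc5 held no match to any of the 3 motifs in their windows. Of these, Mad2l1 and Birc5 had the order of group means K36M, K9M, rtTA, and Pttg1 had its highest mean in K9M. Spc24, the other member with its highest mean in K9M, has no window here. The Pttg1 window lies downstream of the GENCODE start, so any match near that start was not seen.

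**Figure D1:**
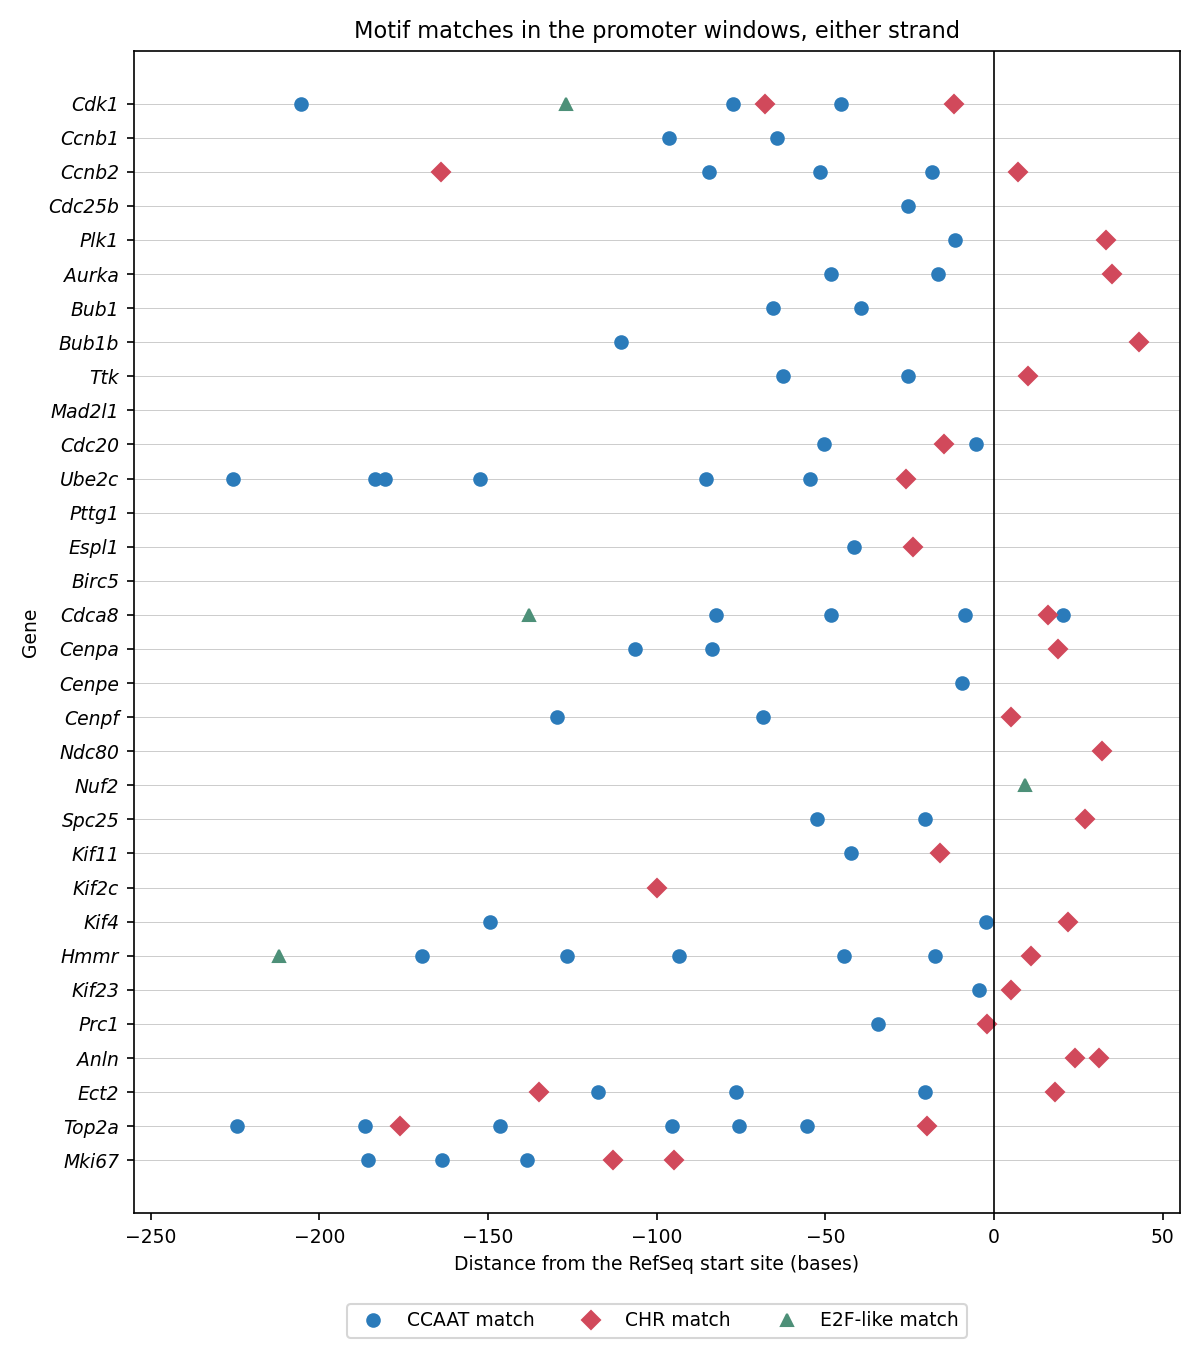
Matches to CCAAT, CHR (TTTGAA) and E2F-like (TTCGCG) letters on either strand in the promoter windows of the 32 members that have one; the horizontal axis is the distance of each match from the RefSeq start site in bases. CHR matches stand near the start site, while CCAAT matches lie mostly upstream of it, and 3 genes have none in their windows. One of these, Pttg1, has a window inside the gene as annotated by GENCODE, as do Kif2c, Cdca8 and Kif4, which have matches.

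Across all 9 libraries the most abundant member was Ccnb2, which encodes cyclin B2, a partner of Cdk1, at a mean of 73.9 RPKM. Top2a, the topoisomerase that untangles sister chromosomes, followed at 66.6 RPKM and Cdc20, the activator of the anaphase promoting complex, at 58.1. The lowest was Cenpf, a large kinetochore protein, at 7.38 RPKM.

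In the order of group means, K36M was highest for 38 of the 40 members. For 26 the order was K36M, K9M, rtTA, and for 12 it was K36M, rtTA, K9M. Pttg1 and Spc24 had their highest mean in K9M. A single library, K36M replicate 3, held the highest value of 30 members, and rtTA replicate 1 the lowest of 18. The mean of log2(RPKM + 0.5) over the members was 4.14, 4.31 and 4.23 in rtTA replicates 1 to 3, 4.24, 4.41 and 4.20 in K9M, and 4.57, 4.52 and 4.76 in K36M. All 3 K36M libraries thus lay above all 6 others, while the K9M and rtTA libraries overlapped. The median coefficient of variation between mice of a group was 12.1% in rtTA, 10.9% in K9M and 12.1% in K36M.

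**Figure D2:**
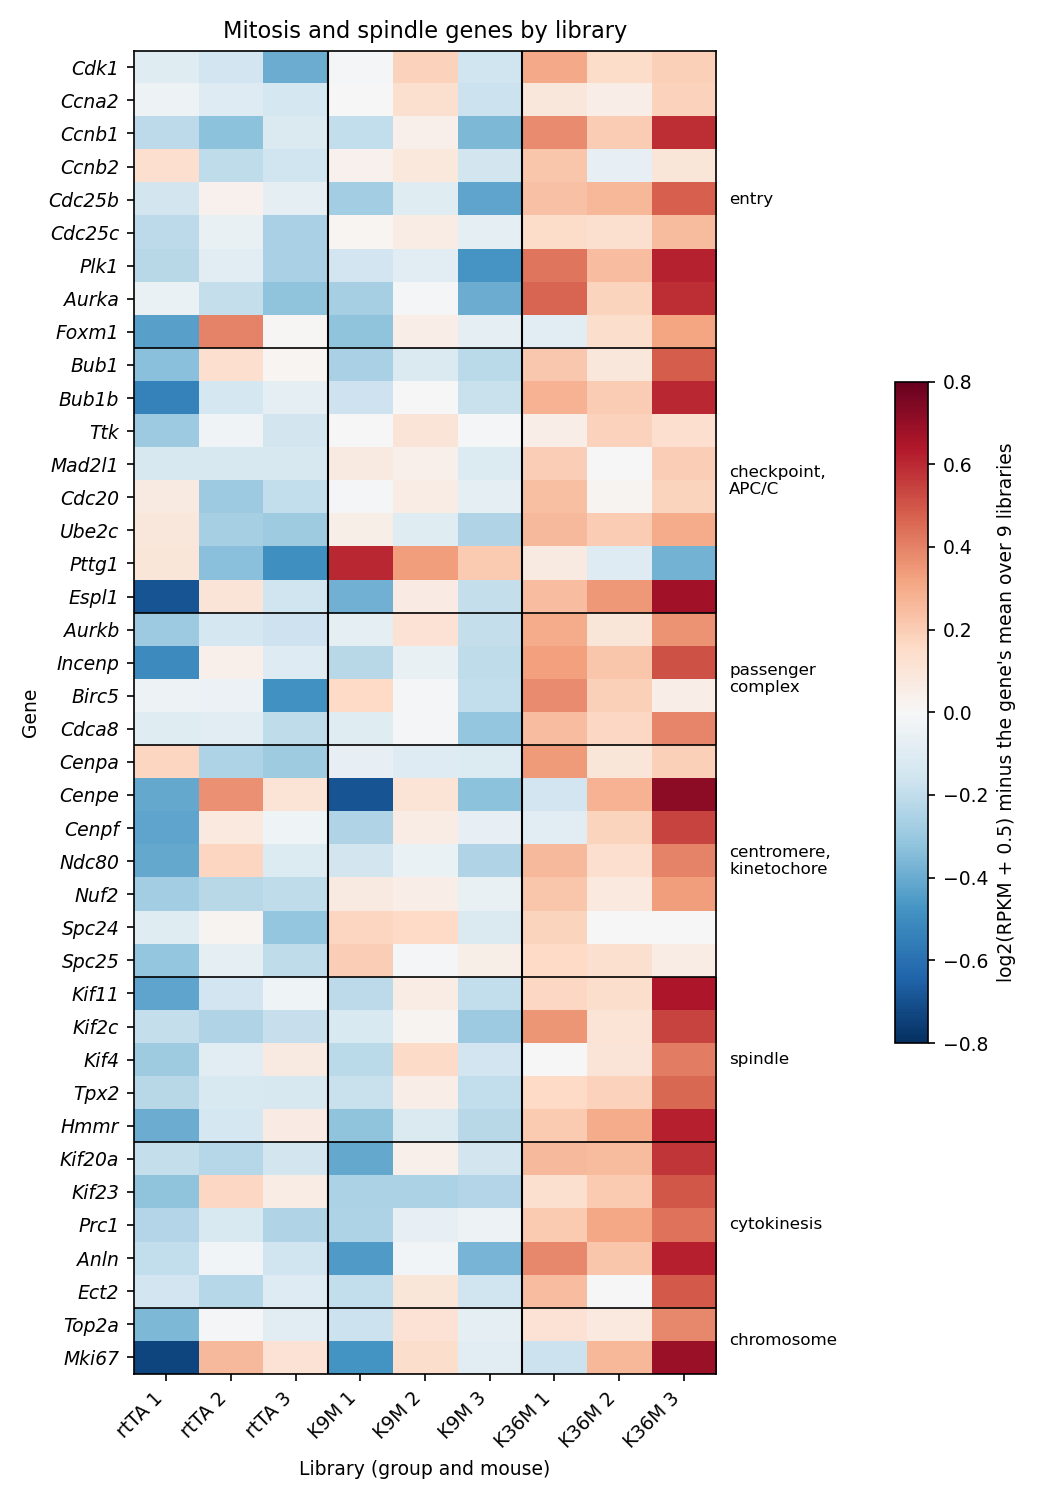
Level of each member in each library as log2(RPKM + 0.5) minus the gene's mean over the 9 libraries, with rows grouped by role and columns by group and mouse. The 3 K36M columns are above the gene's mean for most members, K36M replicate 3 holds the highest value of 30 members, and Pttg1 has its highest values in the K9M columns.

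The comparison of K36M with rtTA asks how these transcripts differed between the K36M and the control mice. Fold changes are differences of log2(RPKM + 0.5), and a gene was called at an adjusted p under 0.05 by limma with Benjamini-Hochberg adjustment over 12926 genes. Of the 40 members, 1 was called, Prc1, which was higher in K36M, against 1.5% of all genes tested called in either direction and 0.572% called higher. All 40 had a positive fold change, against 52.3% of all genes tested, with a median of 0.39 (1.31-fold) against 0.02 for all genes. At an unadjusted p under 0.05, 29 members were higher, against 10.2% of all genes, and none was lower, against 8.86%. For 27 members the lowest K36M mouse lay above the highest rtTA mouse, against 11.6% of all genes, and for none were the groups apart with K36M lower, against 10.6%. In bulk RNA, more cells in division and more transcript per dividing cell cannot be told apart. The single call was lost when any 1 of the 9 libraries was left out. Without K36M replicate 2 a different set of 5 members was called, namely Aurka, Ccnb1, Kif2c, Nuf2 and Plk1. Calls over all genes moved too. They were 74 higher and 120 lower in the full fit, 7 and 3 without K36M replicate 1, and 213 and 189 without K36M replicate 2. The median of the members stayed between 0.33 and 0.44 whichever library was left out. Without rtTA replicate 1 or 3 their lowest fold change was -0.08 or -0.02, so not every member was then positive.

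Among the 5 genes of the central spindle and cytokinesis, the median fold change was 0.51 and 1 of 5 was called. Prc1 (ENSMUSG00000038943, chr7:80294450-80316259 on mm10, plus strand) bundles the antiparallel microtubules of the central spindle. Its level was 12.95, 14.0 and 12.9 RPKM in the rtTA mice, 12.8, 14.6 and 14.8 in K9M and 17.7, 19.1 and 20.85 in K36M. All 3 K36M mice were above all 6 others. Prc1 rose by 0.51 on the log2 scale in K36M over rtTA (SE 0.10, limma adjusted p = 0.048). Its exons share 11.1% of their bases with Rccd1 on the opposite strand, and whether reads were counted by strand is not given in the sources used here. Rccd1 was at 3.33 ± 1.66 RPKM in rtTA and 2.61 ± 0.82 in K36M (SD, n = 3). Kif20a, a kinesin that carries the passenger proteins to the midzone, was at 19.4, 18.85 and 19.99 RPKM in rtTA, 16.6, 22.9 and 19.97 in K9M and 26.6, 26.6 and 33.2 in K36M. The K36M mice did not overlap with the others, and the difference from rtTA was 0.55 (SE 0.14, adjusted p = 0.0865). Anln, the actin-binding scaffold of the cleavage furrow, and Ect2, the exchange factor that activates RhoA there, differed by 0.54 and 0.41. Kif23, a motor subunit of centralspindlin, differed by 0.31 with overlapping groups.

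Of the 9 cyclins, kinases and phosphatases of mitotic entry, none was called, 6 were higher at an unadjusted p under 0.05 and the median was 0.39. Plk1, the polo-like kinase that acts from mitotic entry to cytokinesis, was at 23.9, 26.2 and 23.2 RPKM in rtTA, 25.0, 26.2 and 19.96 in K9M and 37.8, 33.2 and 43.1 in K36M. The K36M mice lay above all others, by 0.62 over rtTA (SE 0.13, adjusted p = 0.0602). Ccnb1, cyclin B1, was at 18.05, 16.6 and 19.3 RPKM in rtTA, 18.2, 21.5 and 16.2 in K9M and 27.4, 24.2 and 31.8 in K36M. Again no K36M mouse overlapped with another group, and the difference from rtTA was 0.61 (SE 0.14, adjusted p = 0.0678). Aurka, the kinase of centrosomes and spindle poles, was at 15.5, 14.1 and 12.8 RPKM in rtTA, 13.3, 15.9 and 12.1 in K9M and 22.5, 18.3 and 24.5 in K36M. The K36M mice were highest, by 0.60 over rtTA (SE 0.14, adjusted p = 0.0806). Cdk1, the kinase itself, was at 29.0, 27.9 and 23.5 RPKM in rtTA, 30.85, 35.35 and 27.8 in K9M and 38.4, 34.4 and 35.5 in K36M. Its K36M and rtTA mice did not overlap, with a difference of 0.43 (SE 0.12, adjusted p = 0.113). For the other cyclins, Ccna2, cyclin A2, differed by 0.20 and Ccnb2 by 0.16, with adjusted p of 0.303 and 0.532. Ccnb2 was at 80.7, 63.8 and 65.6 RPKM in rtTA, 75.4, 77.9 and 66.5 in K9M and 85.8, 70.2 and 78.8 in K36M, and its groups overlapped. Foxm1, a transcription factor of late cell cycle genes, differed by 0.13 (adjusted p = 0.781), and rtTA replicate 2 held its highest value, 13.2 RPKM.

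Of the 8 genes of the spindle checkpoint, the anaphase promoting complex and sister separation, none was called and 6 were higher at an unadjusted p under 0.05, with a median of 0.30. Espl1, separase, which cuts cohesin at anaphase, had the highest fold change of all 40 members, 0.67 (SE 0.21, adjusted p = 0.147). Its values ran from 5.26 to 9.51 RPKM in rtTA and from 10.5 to 14.3 in K36M. Bub1b, the checkpoint protein BubR1, differed by 0.61 (SE 0.15, adjusted p = 0.087). Cdc20 was at 60.7, 47.1 and 50.35 RPKM in rtTA, 57.4, 60.1 and 55.1 in K9M and 68.2, 58.7 and 65.4 in K36M. One rtTA mouse lay above the lowest K36M mouse, and the difference was 0.29 (SE 0.11, adjusted p = 0.225). Ube2c, the ubiquitin-conjugating enzyme of the complex, differed by 0.41, and Mad2l1, the checkpoint protein Mad2, by 0.26. Pttg1, securin, which holds separase inactive, differed least of the 40 members, by 0.11 (SE 0.18, adjusted p = 0.797).

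The 4 genes of the chromosomal passenger complex, which corrects faulty attachments and then moves to the midzone, were close to each other. Their fold changes ran from 0.40 (Cdca8) to 0.54 (Incenp), and for all 4 the groups did not overlap and the unadjusted p was under 0.05, with adjusted p from 0.0905 to 0.21. Incenp, the scaffold of the complex, was at 28.1, 41.3 and 37.4 RPKM in rtTA, 34.4, 38.6 and 34.8 in K9M and 50.5, 46.9 and 57.4 in K36M. The lowest value was that of rtTA replicate 1, and each K36M mouse lay above each of the others. Aurkb, its kinase, differed by 0.45 and Birc5, survivin, by 0.40.

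In the 7 centromere and kinetochore genes the median was 0.33, with 4 higher at an unadjusted p under 0.05 and none called. Nuf2, a subunit of the NDC80 complex that grips microtubules, was at 18.5, 19.2 and 19.5 RPKM in rtTA, 23.7, 23.4 and 21.55 in K9M and 26.3, 23.8 and 28.5 in K36M. The 3 groups formed 3 separate ranges, and the K36M difference from rtTA was 0.44 (SE 0.10, adjusted p = 0.0592). Of its partners in that complex, Ndc80 differed by 0.38, Spc25 by 0.31 and Spc24 by 0.19. Spc24 was at 31.75, 34.5 and 27.3 RPKM in rtTA, 38.3, 38.0 and 31.4 in K9M and 38.5, 33.9 and 33.95 in K36M, with overlap between all groups (adjusted p = 0.45). Cenpa, the histone variant that marks centromeres, differed by 0.33. The motor Cenpe and Cenpf had wide spread within groups, and their intervals included 0.

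The 5 spindle motors and assembly factors had a median of 0.52, with 4 of 5 higher at an unadjusted p under 0.05 and none called. Kif11, the motor that pushes spindle poles apart, was at 26.4, 31.95 and 34.7 RPKM in rtTA, 30.7, 37.1 and 31.0 in K9M and 39.9, 39.2 and 55.9 in K36M. The K36M mice did not overlap with the others, but K36M replicate 3 was well above the other two K36M mice, and the difference from rtTA was 0.52 (SE 0.16, adjusted p = 0.14). Kif2c, which takes microtubules apart at kinetochores, Hmmr and Tpx2, which acts in spindle assembly, differed by 0.54, 0.53 and 0.42. Kif4, a chromosome-bound kinesin, differed by 0.27 with overlapping groups.

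Of the pair of chromosome genes, Top2a was at 51.3, 65.5 and 62.2 RPKM in rtTA, 58.5, 71.55 and 62.8 in K9M and 71.5, 69.65 and 86.4 in K36M. K36M lay above rtTA in every mouse, with K9M overlapping both, and the difference from rtTA was 0.34 (SE 0.13, adjusted p = 0.212). Mki67, the proliferation marker Ki-67, was at 21.6, 43.5 and 39.3 RPKM in rtTA, 25.9, 39.99 and 34.1 in K9M and 32.2, 43.8 and 58.8 in K36M. Its mice within a group differed more than its groups did, with a difference of 0.38 (SE 0.30, adjusted p = 0.535).

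**Figure D3:**
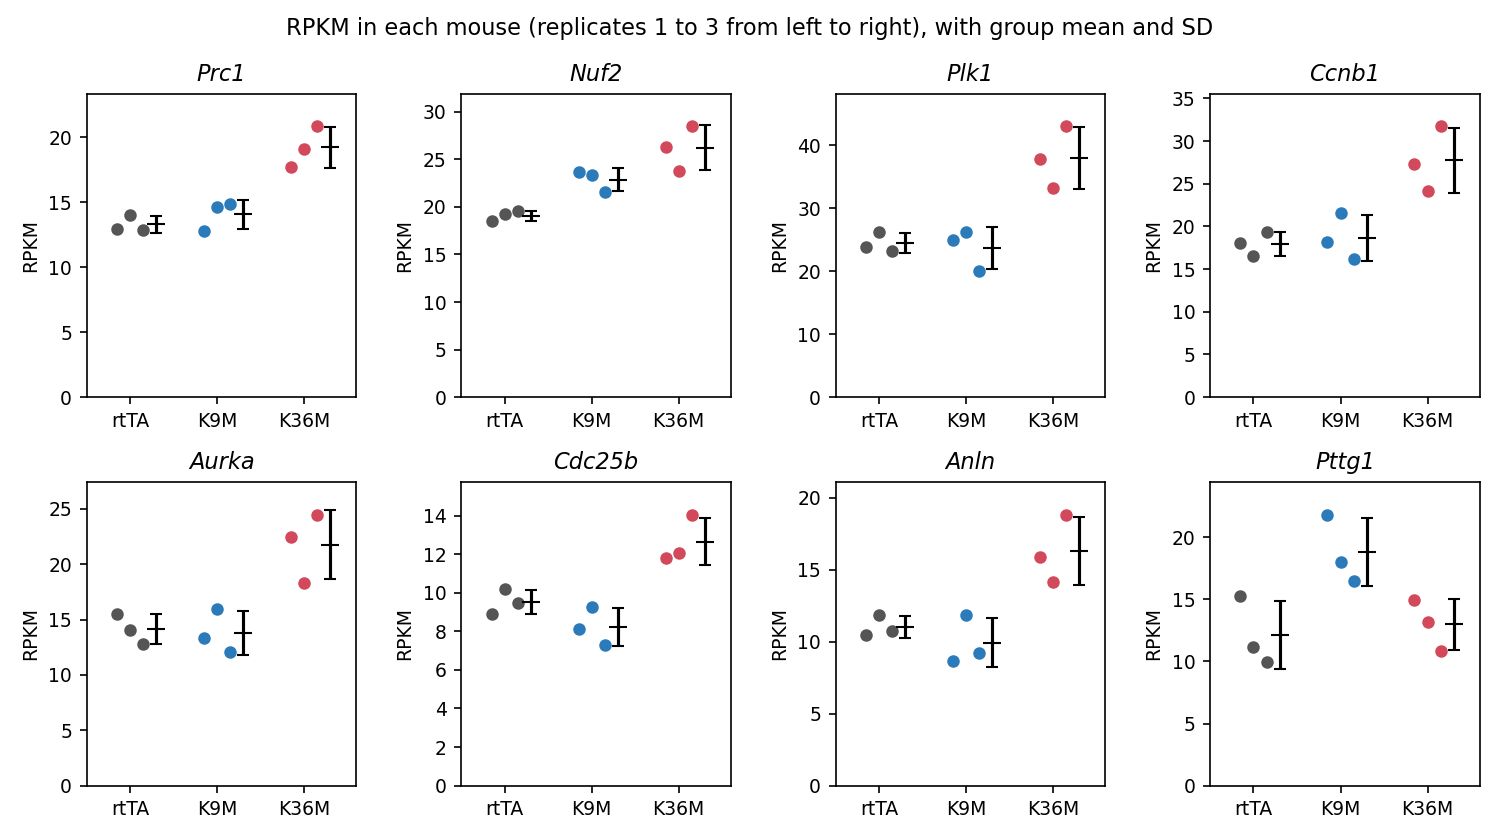
RPKM in each mouse (points, replicates 1 to 3 from left to right) with the group mean and SD (bars) for 8 members; every axis starts at 0. K36M mice lie above all other mice for Prc1, Nuf2, Plk1, Ccnb1, Aurka, Cdc25b and Anln, while Pttg1 is highest in the K9M mice.

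The comparison of K9M with rtTA asks the same of the K9M mice. None of the 40 members was called by limma, against 0.116% of all genes tested, and none was called by limma voom on reads recovered from the RPKM steps. The fold change was positive for 28 members and negative for 12, with a median of 0.06 against 0.01 for all genes, and 51.3% of all genes were positive. At an unadjusted p under 0.05, 3 members were higher, against 4% of all genes, and none was lower, against 3.11%. For 5 members the groups did not overlap, all with K9M higher, against 7.09% of all genes, while 5.43% of all genes were apart with K9M lower. Leaving out any 1 library gave no call, but the median and its sign depended on single libraries. Without K9M replicate 2 it was -0.01 with 19 members positive, without rtTA replicate 1 it was 0.02 with 24 positive, and without K9M replicate 3 it was 0.10 with 32 positive.

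Pttg1 had the smallest p. It was at 15.2, 11.2 and 9.95 RPKM in rtTA, 21.8, 18.0 and 16.5 in K9M and 14.9, 13.2 and 10.8 in K36M. The K9M mice lay above all 6 others, while rtTA and K36M overlapped, and K9M exceeded rtTA by 0.62 (SE 0.18, adjusted p = 0.467). Nuf2, with the values given above, exceeded rtTA by 0.25 (SE 0.10, adjusted p = 0.615). Spc25 was at 8.71, 10.4 and 9.42 RPKM in rtTA, 12.6, 10.8 and 11.3 in K9M and 12.2, 11.95 and 11.4 in K36M. Both mutants lay above rtTA in every mouse and overlapped each other, with K9M above rtTA by 0.27 (SE 0.10, adjusted p = 0.636). Ttk, the checkpoint kinase Mps1, was at 10.1, 12.2 and 11.2 RPKM in rtTA, 12.4, 13.4 and 12.4 in K9M and 12.9, 14.2 and 13.7 in K36M. Here too rtTA was lowest, by 0.19 against K9M (SE 0.10, adjusted p = 0.75). Cdk1, whose values are given above, exceeded rtTA by 0.22 in K9M with overlap (adjusted p = 0.75). Among the roles the medians ran from 0.02 in cytokinesis genes to 0.13 in the checkpoint and anaphase promoting complex genes.

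**Figure D4:**
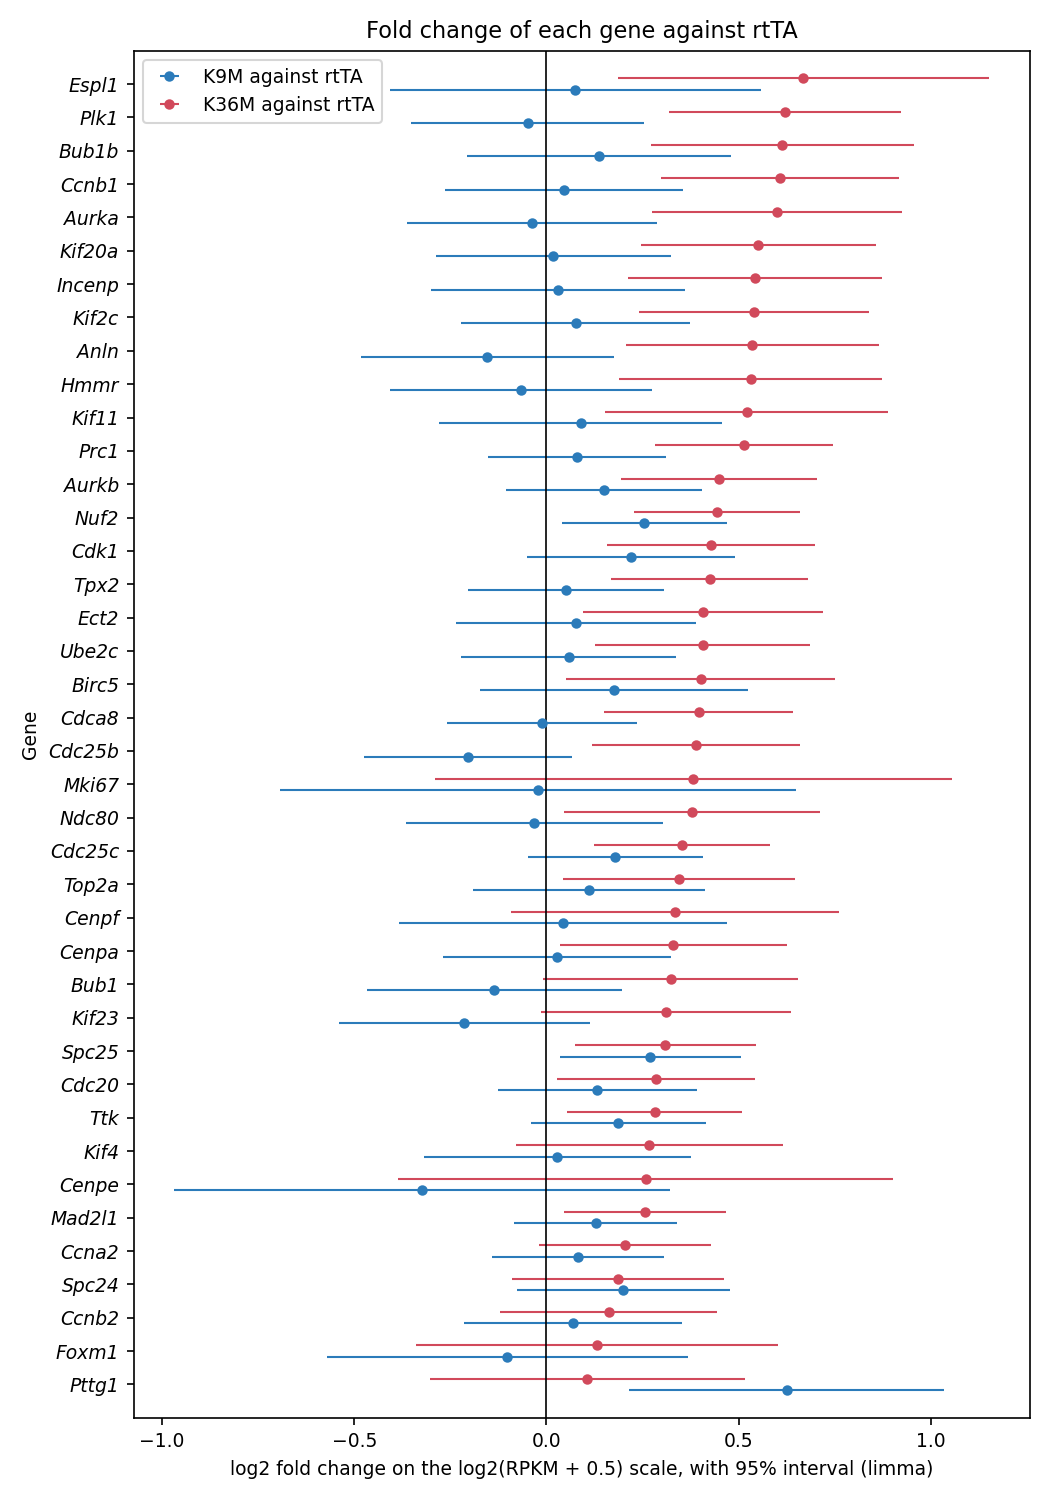
log2 fold change of each member against rtTA with its 95% interval from limma, K9M in blue and K36M in red, ordered by the K36M value; both use the same rtTA mice. All 40 K36M points are above 0, from 0.11 (Pttg1) to 0.67 (Espl1), and the K9M points lie on both sides of 0.

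The comparison of K36M with K9M tests the mutants against each other, both with a mutant histone transgene. Of the 40 members 3 were called, all higher in K36M, against 2.52% of all genes tested called in either direction and 1.02% called higher. They were Plk1, Cdc25b and Anln. The fold change was positive for 38 members, against 51.1% of all genes, with a median of 0.36 against 0.01. At an unadjusted p under 0.05, 22 were higher, against 9.31% of all genes, and 1, Pttg1, was lower, against 9.48%. The groups did not overlap for 22 members with K36M higher (14.5% of all genes) and for 1 with K36M lower (13.4%).

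Plk1 (ENSMUSG00000030867, chr7:122159439-122169873, plus strand), with the values given above, rose by 0.67 in K36M over K9M (SE 0.13, limma adjusted p = 0.0384). Cdc25b (ENSMUSG00000027330, chr2:131186949-131198497, plus strand), a phosphatase that activates Cdk1, was at 8.92, 10.2 and 9.45 RPKM in rtTA, 8.11, 9.26 and 7.31 in K9M and 11.8, 12.1 and 14.05 in K36M. No K36M mouse overlapped with another group, and Cdc25b rose by 0.59 over K9M (SE 0.12, limma adjusted p = 0.0404). Anln (ENSMUSG00000036777, chr9:22332012-22389188, minus strand) was at 10.45, 11.9 and 10.7 RPKM in rtTA, 8.68, 11.9 and 9.22 in K9M and 15.9, 14.1 and 18.8 in K36M. K36M was again highest in every mouse, and Anln rose by 0.69 over K9M (SE 0.15, limma adjusted p = 0.0455). Aurka and Prc1 came next, higher by 0.64 and 0.44 with adjusted p of 0.0541 and 0.0612. Pttg1 was lower in K36M by 0.52 on the log2 scale (value -0.52, SE 0.18, adjusted p = 0.168). By role the medians ran from 0.23 in mitotic entry genes to 0.53 in cytokinesis genes. No member was called without rtTA replicate 3, any K9M replicate, or K36M replicate 1 or 3. Without rtTA replicate 1 the count was 5, without rtTA replicate 2 it was 2 and without K36M replicate 2 it was 4. Calls over all genes moved too, from 132 higher and 194 lower in the full fit to 10 and 21 without K36M replicate 1. Without K36M replicate 2 they were 265 and 244.

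Of the 24 members with a CHR match, the median fold change of K36M over rtTA was 0.40, and of the 8 members with a window but no match it was 0.36. Over K9M these medians were 0.41 and 0.34. The ranges overlapped. The 8 without a match include Pttg1, whose window lies inside the annotated gene. The 24 with a match include Kif2c, Cdca8 and Kif4, whose windows also lie inside the annotated gene. This is a description of these windows with no test.

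Libraries also differed by transcript length. The correlation of a member's deviation from its own mean with the log2 of its exon length was -0.61 in rtTA replicate 1, -0.55 in K9M replicate 1 and -0.43 in K36M replicate 1. It was 0.49 and 0.52 in rtTA replicates 2 and 3 and 0.41 and 0.50 in K36M replicates 2 and 3, and -0.09 and 0.03 in K9M replicates 2 and 3. Each value is across 40 genes of 1 library that share its depth and preparation, and genes are not independent replicates. Over 12898 genes the correlations ran from -0.20 to 0.23. In K36M replicate 3 the 10 longest members were 0.54 above their own means and the 10 shortest 0.19. For K36M over rtTA the median was 0.35 in the 10 shortest members and 0.36 in the 10 longest. For K36M over K9M it was 0.19 in the shortest and 0.43 in the longest. With the trend in length removed from every library these values were 0.36 and 0.39, and 0.21 and 0.40, and 3 and 7 members were called in these comparisons in place of 1 and 3.

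**Figure D5:**
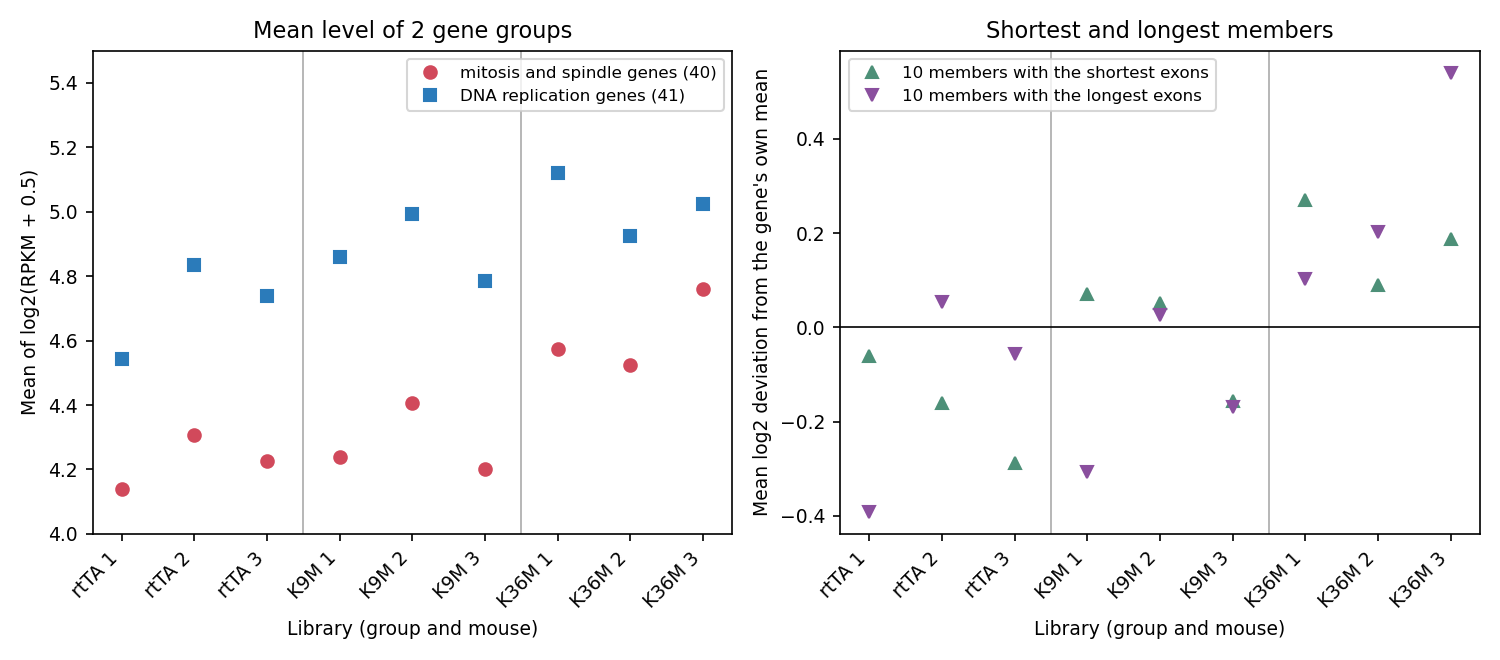
Left, the mean of log2(RPKM + 0.5) over the 40 mitosis and spindle genes and over 41 DNA replication genes in each library; right, the mean log2 deviation from the gene's own mean for the 10 members with the shortest and the 10 with the longest exons. K36M libraries hold the 3 highest means of the mitosis genes, from 4.52 to 4.76. The shortest members lie above the longest in the replicate 1 libraries. The longest lie above the shortest in replicates 2 and 3 of rtTA and of K36M, most in K36M replicate 3.

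Other genes of division, 171 in 6 mitotic lists and 1 DNA replication list, had no call in K36M over rtTA by limma or by limma voom on recovered reads. Of all genes tested, limma called 1.5% in either direction. Of 16 condensin and cohesin genes, 15 were positive and 11 were higher at an unadjusted p under 0.05, with a median of 0.34, where 52.3% of all genes were positive and 10.2% were higher at that p. Sgol2, a shugoshin that protects cohesin at centromeres, was at 5.85 ± 0.28 RPKM in rtTA and 8.68 ± 1.31 in K36M (SD, n = 3), a difference of 0.52 with adjusted p = 0.0975. Ncapd2, a condensin subunit, differed by 0.35 (adjusted p = 0.131). The 17 subunits and partners of the anaphase promoting complex had a median of 0.14, with 15 positive and 3 higher at an unadjusted p under 0.05. In that list Anapc11 and Ube2s differed by 0.33 and 0.31. Of 32 other centromere and kinetochore genes 28 were positive with a median of 0.18, 6 were higher at an unadjusted p under 0.05, and Ska1 and Cenpm had the smallest p, with differences of 0.53 and 0.41. Of 33 other spindle and cytokinesis genes 29 were positive with a median of 0.26 and 9 were higher at that p, and Kifc1 and Nusap1, a motor and a microtubule-binding protein of the spindle, differed by 0.39 each. Of 17 other genes of mitotic entry and the centrosome 15 were positive with a median of 0.28 and 5 were higher at that p, led by the centrosome kinases Nek2 and Plk4, at 0.48 and 0.54.

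Genes of the B-MYB, MuvB and DREAM complexes, which are known to act at CHR elements, are listed next. The same list holds Nfya, Nfyb and Nfyc, which encode NF-Y, the factor that binds CCAAT boxes. Of 15, 9 had a positive fold change in K36M over rtTA, with a median of 0.07. At an unadjusted p under 0.05, 5 were higher and 2 lower, against 10.2% and 8.86% of all genes. Rbbp4 was at 37.0 ± 1.00 RPKM in rtTA and 51.3 ± 5.82 in K36M, and Tfdp2 at 12.03 ± 2.18 and 7.56 ± 1.47 (SD, n = 3), with adjusted p of 0.0711 and 0.1.

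The 41 genes of DNA replication and S phase were positive in K36M over rtTA for 40, with 24 higher at an unadjusted p under 0.05 and a median of 0.31. In K9M over rtTA 38 of them were positive and 7 were higher, with a median of 0.20. In K36M over K9M 32 were positive and 5 were higher, with a median of 0.09. Of all genes tested, 10.2%, 4% and 9.31% were higher at that p in these 3 comparisons, in the same order. The last count is thus near the share of all genes. For the mitosis and spindle genes the 3 medians were 0.39, 0.06 and 0.36. The comparisons share mice, and the difference between the lists was not tested. The replication genes with the smallest p in K36M over rtTA were Ccne2, cyclin E2, at 0.70 (adjusted p = 0.0637) and Cdc45, a part of the replicative helicase, at 0.52 (adjusted p = 0.0865).

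In K36M over K9M 1 of these 171 genes was called, higher, against 1.02% of all genes called higher and 2.52% called in either direction. By limma voom 3 were called higher and 1 lower, where 217 and 351 of all 12898 genes were. The lists thus held no more calls than all genes. Kifc1, a minus-end directed spindle motor, was at 16.2 ± 1.36 RPKM in rtTA, 14.7 ± 0.39 in K9M and 21.3 ± 0.91 in K36M (SD, n = 3), and rose by 0.52 over K9M (SE 0.09, limma adjusted p = 0.029). In K9M over rtTA none was called by limma or by limma voom, where limma called 0.116% of all genes. The numbers at an unadjusted limma p under 0.05 in the 6 mitotic lists were 7 higher and 1 lower, of 130 genes, against 4% and 3.11% of all genes.

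Markers of other cells differed between the same libraries. Over all genes tested, 1.5% were called in K36M over rtTA and 2.52% in K36M over K9M, in either direction. All 12 mature granulocyte markers were lower in K36M than in rtTA, 2 of them called, Ltf and Chi3l3, and their summed RPKM ran from 749.5 to 6612 in rtTA, from 473.0 to 1126 in K9M and from 184.2 to 424.9 in K36M. The value of 6612 was that of rtTA replicate 3, and without it the median of the mitosis and spindle genes in K36M over rtTA was 0.38. Monocyte and macrophage markers, 9 in all, were between 163.4 and 628.7 RPKM summed. In K36M over rtTA this list was split, with 5 of 9 positive: Klf4 and Cd68 were called lower, while Cx3cr1, Emr1 and Ly86 were higher by 1.32, 1.46 and 0.91 at an unadjusted p under 0.05 and were not called. In K36M over K9M 5 of 9 were positive and Cx3cr1 and Ly86 were called higher. Of 11 erythroid markers tested, 8 were positive in K36M over rtTA and 7 over K9M. Hbb-bt was called higher, by 3.64 and 3.10, while Car1 was at -0.57 and -1.32 and Hba-a1 at -0.10 and -0.43, not called. The summed level of the 13 listed ran from 433.1 to 461.1 in rtTA, from 462.6 to 632.6 in K9M and from 438.0 to 711.4 in K36M. The 10 B lineage markers summed to 46.1 to 63.8 RPKM in rtTA, 21.55 to 28.0 in K9M and 33.3 to 42.85 in K36M, with none called. The 10 T and NK lineage markers summed to 100.7 to 107.2 RPKM in rtTA, 135.2 to 146.8 in K9M and 113.0 to 156.7 in K36M, nearly all of it Nkg7, at 89.3 to 144.5 RPKM. Of the 3 tested, none was called: Nkg7 was higher than rtTA by 0.44 in both mutants, Cd4 by 0.64 in K36M and Lck by 0.58 in K9M. The defining T cell genes Cd3e, Cd3g and Cd8a were each listed at 0 in 2 libraries, and Cd3e reached 0.168 RPKM at most. Of 7 megakaryocyte markers, 6 were positive in K36M over rtTA and none was called. Pf4 went the other way and had the largest difference, -1.19 over rtTA and -1.37 over K9M. Its mean was 44.5 RPKM in rtTA, 49.4 in K9M and 19.3 in K36M. Of 12 stem and progenitor markers, 10 were lower in K36M than in rtTA, with a median of -0.41 and none called. Of these, Kit was at 95.4 RPKM in rtTA, 86.4 in K9M and 66.2 in K36M, while Flt3, Ly6a and Meis1 differed by only -0.14, -0.10 and -0.05. The other markers, Mecom and Slamf1, were higher in K36M by 0.40 and 0.45, each at an unadjusted limma p under 0.05. At that p 6 of the 12 were lower in K36M, namely Kit, Hoxa9, Hlf, Cd34, Gata2 and Procr. Of all genes, 10.2% were higher and 8.86% lower at that p. The part of these cells in the levels of the mitosis and spindle genes was not tested.

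Some members share sequence with neighbours. Of the 40 genes, 12 share exon bases with another gene, 6 of them over 10% of their length. Beside Prc1, these are Kif20a, Ube2c, Kif4, Cdc25c and Ccna2, and their values are uncertain by what the neighbour adds. The neighbours differ in level. Tnnc2, beside Ube2c, was at no more than 0.112 RPKM, and Gm3550, beside Cdc25c, at no more than 0.507. Cdc23, Pdzd11 and Exosc9, beside Kif20a, Kif4 and Ccna2, had group means from 9.04 to 13.4 RPKM. The processed copies Ccnb2-ps and Kif4-ps were at no more than 2.05 and 0.045 RPKM.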

How the data were processed

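RNA was sequenced from LSK cells of 9 mice; per the labels the molecule was polyA RNA, while the kit named is one for total RNA. The authors deposited RPKM values for 37882 genes. The tools were CASAVA 1.7 and STAR, with build mm10, per the submitters' processing notes; the counting rule is not given in the sources used here. With GENCODE lengths, 50.5% to 52.1% of low values (20 reads or fewer) were whole within 0.02, against 4% by chance, so recovered reads served only as an alternative.

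limma 3.58.1 in R 4.3.3 fitted 3 group means to log2(RPKM + 0.5) of the 12926 genes that reached an RPKM of 1 in 3 or more libraries, using eBayes with a mean-variance trend. Tests were two-sided with Benjamini-Hochberg adjustment over all genes, and fold changes understate those of low genes. The script was tested on simulated data. Groups came from the sample titles.

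The members and lists were chosen with earlier results of these data known. Given in full were the members called in a comparison, filled up to 5 by smallest p, and the most abundant member of each role; of other lists, up to 4 called genes or the 2 uncalled with the smallest p. Other genes named were chosen after their values were seen.

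Same-numbered K36M and rtTA libraries deviated together (correlations 0.369 to 0.414, other numbers -0.377 to 0.0129), which meets the rule used for pairing, from the data and not the labels. The reported values come from the fit without a block, and the replicate block was an alternative. Alternatives were other pseudocounts, filters, scalings, library weights, the replicate block, the compared groups alone and leaving out each library. Removal of the length trend and limma voom on recovered reads were added after seeing the data. Gene coordinates and exon lengths are from GENCODE M21 on mm10, promoters from RefSeq on GRCm38.p6. The windows used for Pttg1, Kif2c, Cdca8 and Kif4 lie inside the gene as annotated by GENCODE.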

Additional observations from a re-analysis of the deposited data

How the results depend on the processing

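In K9M against rtTA the count of called members was 0 under all settings run. For the members given in full, 22 fold changes were recomputed under the alternatives, and none changed sign. Most of these were picked for the smallest p in their comparison, so a stable sign says little. In other comparisons some of the same members did change sign, among them Plk1, Aurka and Ccnb1 in K9M against rtTA. Among all 40 members the sign changed under at least 1 setting for 2 in K36M against rtTA, Foxm1 (-0.08 without rtTA replicate 1) and Pttg1 (-0.02 without rtTA replicate 3), for 2 in K36M against K9M, Spc24 and Spc25, and for 21 in K9M against rtTA. The median fold changes of the members moved by less than the spread between mice under every setting, but in K9M against rtTA the median, 0.06, ran from -0.01 to 0.10 when 1 library was left out. In K36M against rtTA the 1 called member became 0 with no filter on low values, 0 with median ratio size factors and 0 with only the compared groups, 3 with the length trend removed and 6 with it removed together with the replicate block. Leaving out 1 library gave 0 to 5. In K36M against K9M the 3 called members became 0 with no filter, 0 with only the compared groups, 8 with library weights, 7 with the length trend removed, 7 with it removed together with the replicate block, and 6 with limma voom on recovered reads. Leaving out 1 library gave 0 to 5. Calls over all genes shifted as well. In K36M against rtTA, 74 higher and 120 lower became 17 and 8 with only the compared groups and 76 and 132 with median ratio size factors. In K36M against K9M, 132 higher and 194 lower became 50 and 68 with no filter and 239 and 350 with library weights. The cause of these shifts was not tested, except that fits to fewer libraries have fewer degrees of freedom. The block by replicate number left 1 member called in K36M against rtTA, where the numbers paired, and 0 in K9M against rtTA. In K36M against K9M the block gave 6, with Pttg1 lower; there the same-numbered libraries did not pair (correlations -0.171 to 0.0741). Of 462 values of members given in full under alternatives, 409 stayed on their side of the threshold, 38 lost the call and 15 gained it. With 3 mice a group, differences near the spread between mice cannot be resolved, whatever the depth.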
